A study of Mus musculus with 3 samples.

Results

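The genes described here present peptides on the cell surface. They were chosen by name, 10 of the 22535 genes in the deposited tables, and split by pathway. The 6 class II members were H2-Aa, H2-Ab1 and H2-Eb1, which encode chains of the class II molecules, H2-DMa, a chain of the peptide exchange factor, Cd74, the invariant chain, and Ciita, the transactivator of the whole pathway. The 4 class I members were H2-K1 and H2-D1, the class I heavy chains, B2m, their shared light chain, and Tap1, a subunit of the transporter that carries peptides into the endoplasmic reticulum. All 10 were counted in all 3 libraries. Cd74 lies apart from the others, on chromosome 18 (60803848 to 60812652, forward strand, mm10).

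The libraries were made by BD Rhapsody single-cell RNA-seq of dissociated kidney from mice carrying WT1CreERT2 and Rosa26-tdT fl/+. In these mice a tamoxifen-activated Cre sits in the Wt1 locus, so that the red reporter tdT marks cells that used Wt1 at induction, mainly podocytes and parietal epithelial cells (PECs) of the glomerulus, and all 3 libraries share both alleles. The Sham library came from sham-operated kidneys, and IRI24h-TDN and IRI24h-TD from kidneys 24 h after ischemia-reperfusion injury (IRI). Sham and IRI24h-TDN held a cell mixture enriched in tdT+ cells, and IRI24h-TD held tdT+ cells alone. The age, sex and strain of these mice are not given in the sources used here. Each condition was 1 library, so no test was possible. Where 3 values stand in a row, they belong to Sham, IRI24h-TDN and IRI24h-TD in that order. Levels are UMIs of a gene per 1000000 UMIs of a cell class in a library (CPM) and carry an exact Poisson 95% interval, and shares of cells carry an exact Clopper-Pearson 95% interval, and these intervals cover counting error only.

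Class II molecules carry peptides from engulfed material to CD4 T cells and are kept to macrophages, dendritic cells and B cells unless interferon gamma switches on Ciita in other cells. Class I molecules carry peptides made inside the cell to CD8 T cells and are present on nearly all nucleated cells. In kidney, resident macrophages carry class II at rest, while parietal and tubular epithelium can gain it in inflammation.

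Most members lie together in the major histocompatibility complex on chromosome 17 (build mm10, GRCm38, GENCODE M21). On the forward strand are H2-DMa (34119541 to 34139101), Tap1 (34187553 to 34197225), H2-Ab1 (34257689 to 34269419), H2-Eb1 (34305867 to 34316674) and H2-D1 (35262730 to 35267499), and on the reverse strand are H2-K1 (33996017 to 34000347) and H2-Aa (34282744 to 34287823). B2m lies on chromosome 2 (122147686 to 122153083) and Ciita on chromosome 16 (10480059 to 10528418), each on the forward strand. The promoters of a pair of members from each pathway are printed because class II and class I differed between cells and libraries in separate ways. They are the 200 bases before the RefSeq start (GRCm38.p6), read 5′ to 3′ on the gene's strand, at chr17:34287824-34288023 for H2-Aa (reverse), chr17:34305667-34305866 for H2-Eb1 (forward), chr17:34000348-34000547 for H2-K1 (reverse) and chr2:122147487-122147686 for B2m (forward). Capitals mark every match, on either strand, to CCAAT (the Y box of class II promoters), TGACG (a CRE core), GGGGATTCC (an NF-kB site) and GAANNGAAA (a core of the interferon response element, searched also with GAAA in place of its first GAA).
H2-Aa: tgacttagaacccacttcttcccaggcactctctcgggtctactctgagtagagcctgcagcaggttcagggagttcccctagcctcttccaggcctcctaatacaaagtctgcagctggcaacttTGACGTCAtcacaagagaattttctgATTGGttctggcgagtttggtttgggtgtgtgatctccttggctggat
H2-Eb1: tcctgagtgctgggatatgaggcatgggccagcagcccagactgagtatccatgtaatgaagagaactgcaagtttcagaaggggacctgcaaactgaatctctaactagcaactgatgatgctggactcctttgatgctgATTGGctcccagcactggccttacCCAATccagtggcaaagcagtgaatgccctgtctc
H2-K1: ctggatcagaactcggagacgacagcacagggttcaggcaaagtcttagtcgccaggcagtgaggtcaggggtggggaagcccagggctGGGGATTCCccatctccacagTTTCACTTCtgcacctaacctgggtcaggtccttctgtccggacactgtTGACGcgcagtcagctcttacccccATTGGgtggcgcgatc
B2m: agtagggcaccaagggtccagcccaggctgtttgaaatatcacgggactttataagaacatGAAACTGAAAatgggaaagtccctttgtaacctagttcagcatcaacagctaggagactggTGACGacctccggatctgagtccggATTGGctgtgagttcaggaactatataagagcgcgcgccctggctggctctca
In H2-Aa the CRE core began at position -74 from the start and the Y box at -48. H2-Eb1 held 2 Y boxes, the first at -59, and none of the other letters. H2-K1 held all 4 motifs, with the NF-kB site at -111 and the interferon core at -90, and H2-D1 held all 4 as well, with these at -171 and -150. In B2m the interferon core began at -139, the CRE core at -78 and the Y box at -53. The window of H2-DMa held none of these letters, and that of Tap1 held a CRE core alone, at -86. Over the 27025 promoters of the same window, CCAAT was found in 30.02%, TGACG in 15.8%, both in 5.14%, the interferon core in 7.03% and GGGGATTCC in 0.155%. These matches describe letters in a window and not bound sites.

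Barcodes with under 200 genes or over 50% of UMIs from mitochondrial genes were left out, and 26760 of 30008 remained (8047, 9024 and 9689), with library medians of 7746 to 9529 UMIs. Pairs of libraries shared 102 to 114 barcode sequences. Cells were clustered without the members, the pathway genes or any other H2- gene, so that antigen presentation did not shape the classes, and classes were named from marker genes. Podocyte-like cells were the most numerous (4353, 5162 and 8757 cells), and macrophage-like cells numbered 245, 644 and 10. One cluster, number 7 (425, 146 and 168 cells), carried 11 of 12 PEC markers and 9 of 16 markers of proximal tubular epithelial cells (PTECs) in at least 25% of its cells, and its top genes held Sox9, an injured-tubule marker, and no PEC marker. It is therefore kept apart by number, and PEC-like here means clusters 16 and 19 (380, 99 and 148 cells), which carried 9 and 12 of the PEC and 1 and 2 of the PTEC markers. At least 25% of the cells of clusters 7 and 16 had each of the 10 podocyte markers as well, as had cluster 19 for 9 of them, and the 3 PTEC-like clusters carried 5 to 9 of them, so podocyte markers did not tell these clusters apart. The top genes of cluster 16 held 1 PEC marker, Dkk3, and those of cluster 19 held Cp, Wnt16 and Gstm1. A further cluster, number 8 (211, 155 and 311 cells), with podocyte and PEC genes, was left unnamed.

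Class II separated macrophage-like and dendritic-like cells from podocyte-like cells in Sham. The 6 genes summed to 64633 CPM (64150 to 65119) in macrophage-like cells, 63343 CPM in the 38 dendritic-like cells and 74.2 CPM (71.4 to 77.0) in podocyte-like cells. Macrophage-like over podocyte-like CPM gave a log2 ratio of 9.77, and single genes ran from 7.64 for H2-DMa to 10.06 for Ciita. All 6 class II members were at least 2-fold higher in macrophage-like cells, against 23.3% of the genes with at least 20 UMIs over both groups. Among class I members B2m alone passed that line (log2 2.07), with H2-K1 at 0.97, Tap1 at 0.96 and H2-D1 at 0.33. In IRI24h-TDN 5 class II members were past 2-fold, against 22.2% of genes, and Ciita had 18 UMIs over both groups, too few to be counted. Here 3 class I members passed it as well, B2m (2.83), Tap1 (2.53) and H2-K1 (1.82).

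**Figure D1:**
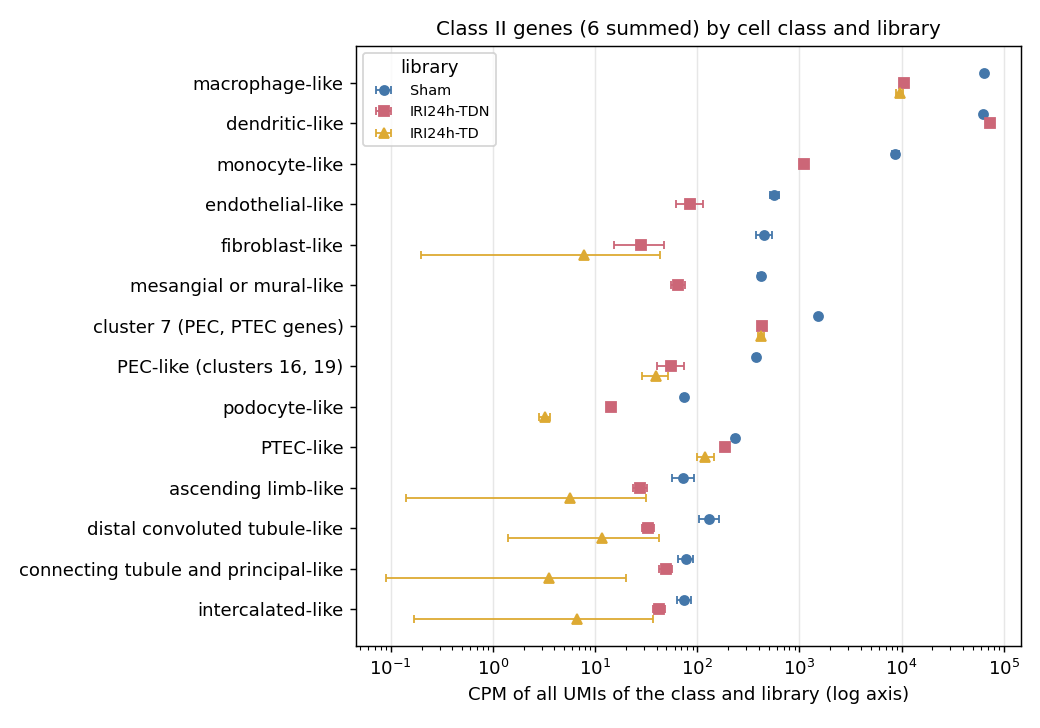
Summed CPM of the 6 class II genes (log axis) for each cell class with at least 10 cells, by library, with exact Poisson 95% intervals. Macrophage-like cells sit at 64633 CPM in Sham and 10681 in IRI24h-TDN, dendritic-like cells at 63343 and 72868, and podocyte-like cells at 74.2 and 14.4.

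Other leukocyte classes held less class II in Sham and rested on few cells. The 14 monocyte-like cells summed to 8691 CPM, and the 33 T or NK-like cells held 5 class II UMIs in all. In the 32 plasma-like cells, antibody-secreting cells of the B lineage, Cd74 stood at 1821 CPM while H2-Aa, H2-Ab1 and H2-Eb1 stood at 107, 204 and 77.9. Among named classes with at least 50 cells, the order after macrophage-like cells was cluster 7 (1535), endothelial-like (567), fibroblast-like (452) and mesangial or mural-like cells (420), then the PEC-like clusters (379). From endothelial-like to PEC-like cells the intervals of neighbours in this order overlapped. Without its 10 richest cells the fibroblast-like class stood at 142 CPM, from 33 UMIs. PTEC-like cells followed at 235 CPM and distal convoluted tubule-like cells at 131. Connecting tubule and principal-like (77.1), intercalated-like (74.5), podocyte-like and ascending limb-like cells (73.3) had overlapping intervals.

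After injury the class II level of macrophage-like cells was 6.05-fold lower, while their class I level differed little. The class II sum was 64633 CPM in Sham and 10681 CPM (10578 to 10785) in IRI24h-TDN, a log2 ratio of -2.60 (-2.61 to -2.58). H2-Aa went from 16519 to 2598 CPM, H2-Ab1 from 13614 to 2000, H2-Eb1 from 13652 to 1961 and Cd74 from 20221 to 3904, with log2 ratios of -2.67, -2.77, -2.80 and -2.37. Ciita had the largest ratio of the 6, from 248 UMIs and 234 CPM in 245 cells to 17 UMIs and 4.45 CPM in 644 cells (log2 -5.72, -6.52 to -5.01). H2-DMa had the smallest, from 393 to 214 CPM (-0.87, -1.05 to -0.70), which did not reach 2-fold. In all, 5 of 6 class II members were at least 2-fold lower, against 8.11% of 9406 genes.

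The class I sum of the same cells was 9785 CPM in Sham and 9714 CPM in IRI24h-TDN (log2 -0.01, -0.04 to 0.02). H2-K1 stood at 1742 and 1957 CPM, H2-D1 at 3286 and 3371, B2m at 4707 and 4302 and Tap1 at 50.1 and 84.3. None of the 4 was 2-fold apart. The median gene was itself higher, with a log2 ratio of 0.25, and TMM factors moved all ratios down by 0.24. With them the class II sum was at -2.84 and H2-DMa at -1.12, now past 2-fold, while H2-K1 and H2-D1 changed sign, from 0.17 to -0.07 and from 0.04 to -0.21. The 10 macrophage-like cells of IRI24h-TD, the other injured library, summed to 9565 CPM of class II (8787 to 10393) and 9805 CPM of class I.

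The lower class II level was seen across the cells. In Sham the median cell had 67541 class II CPM and the 10th and 90th percentiles were 45295 and 88762. In IRI24h-TDN the median was 7461 and the percentiles 2297 and 31374. Of the 644 cells of IRI24h-TDN, 618 (96.0%) were below the 10th percentile of Sham and 285 (44.3%) below its lowest cell, so the distributions overlapped in part. Median depth was 4017 UMIs per cell in Sham and 5365 in IRI24h-TDN. The leukocyte list (Ptprc, Tyrobp, Fcer1g, Laptm5, Coro1a, Cd52 and Cd53) summed to 8809 and 10356 CPM in the same cells.

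**Figure D2:**
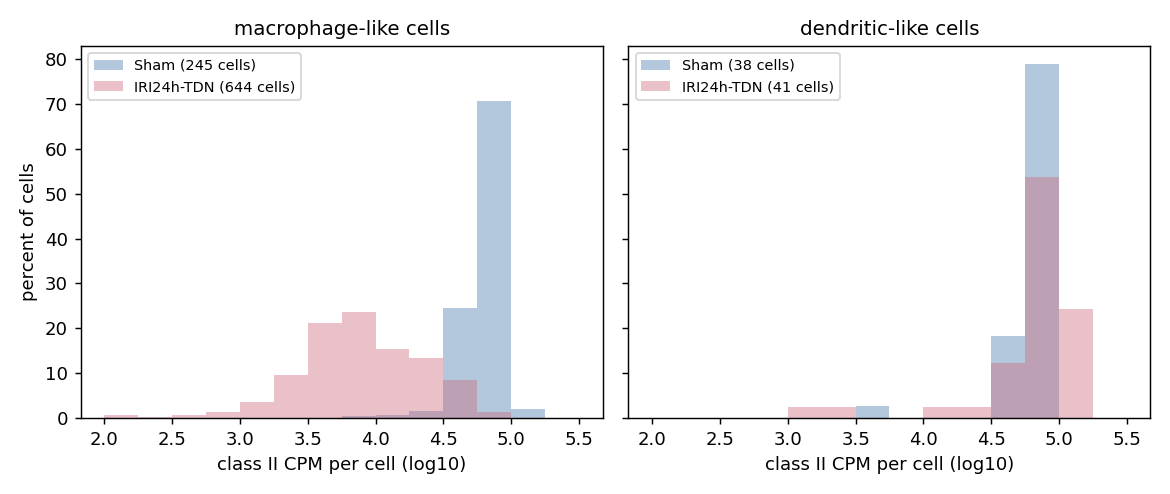
Share of cells in bins of class II CPM per cell (log10) for macrophage-like and dendritic-like cells in Sham and IRI24h-TDN. In macrophage-like cells the IRI24h-TDN distribution lies to the left, with a median of 7461 against 67541 CPM, while both dendritic-like distributions lie near the same level.

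Class II was lower in each of the 6 macrophage-like subclusters. Subclusters 0, 1 and 2, which together held most of these cells in both libraries, had log2 class II ratios of -2.45, -2.80 and -2.47. Subcluster 4, led by Lyve1 and Cd163, genes of perivascular resident macrophages, had the lowest ratio at -3.46 (47613 to 4330 CPM over 18 and 68 cells). The small subclusters 11 and 15 gave -2.12 and -1.98 over 9 and 27, and 5 and 13 cells. Class I ratios of the 6 subclusters ran from -0.31 to 0.06.

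Dendritic-like cells had a high class II level in both libraries. In subcluster 8, led by Xcr1 and Clec9a, markers of cross-presenting dendritic cells, the sum was 60313 CPM over 30 cells of Sham and 57050 CPM over 14 cells of IRI24h-TDN. In subcluster 12, led by Cd209a and Clec10a, it was 83013 CPM over 8 cells and 81395 CPM over 27. The whole class stood at 63343 and 72868 CPM, with more cells of subcluster 12 after injury, and 5 of the 41 cells of IRI24h-TDN were below the 10th percentile of Sham. Cd74 was lower in both subclusters (15638 to 10887 and 22029 to 16132 CPM), and so was Ciita (325 to 35.97 CPM, the latter from 3 UMIs, and 515 to 233 CPM). Only 38 and 41 cells stand behind these values, and the difference between macrophage-like and dendritic-like changes was not tested.

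Monocyte-like cells were nearly all from the injured mixture (182 cells, against 14 in Sham) and held little class II. Their sum in IRI24h-TDN was 1111 CPM, with 79.5% of the 1334 UMIs in 10 cells, and the median cell had 175 CPM. Class I stood at 8220 CPM, beside 9714 CPM in macrophage-like cells of that library. H2-DMa made up 9.07% of the class II UMIs of monocyte-like cells (7.58 to 10.7), against 2.01% in macrophage-like cells of the same library.

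Podocyte-like cells had the lowest class II level of the named classes with at least 50 cells in both injured libraries, beside 14.0 and 3.99 CPM in the unnamed cluster 8, whose intervals (8.65 to 21.4 and 2.12 to 6.82) held the podocyte-like values. Their class II sum was 74.2, 14.4 and 3.23 CPM (the last 2.85 to 3.64), from 2704, 708 and 269 UMIs. The 7 podocyte-like clusters had like levels, at 64.0 to 77.3 CPM, 11.1 to 18.95 CPM and 2.38 to 3.87 CPM in the 3 libraries. In Sham H2-Aa, H2-Ab1, H2-Eb1 and Cd74 made up 27.4%, 22.6%, 19.05% and 28.0% of these UMIs, beside 25.6%, 21.1%, 21.1% and 31.3% in macrophage-like cells. Per UMI of the leukocyte list, podocyte-like cells held 9.62 class II UMIs in Sham and 1.32 in IRI24h-TDN, beside 7.34 and 1.03 in macrophage-like cells. Both ratios were lower in IRI24h-TDN, and the part of free RNA in the podocyte-like values was not tested.

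Between IRI24h-TDN and Sham 4 class II members were at least 2-fold lower in podocyte-like cells, with log2 ratios of -2.46 for H2-Aa, -2.48 for H2-Ab1, -2.31 for H2-Eb1 and -2.72 for Cd74, against 9.37% of genes. The same 4 were lower again in IRI24h-TD than in IRI24h-TDN, which are 2 libraries of the same injury and differ in the sort, at -4.81, -3.32, -2.30 and -3.23, against 2.99% of genes. H2-DMa did not differ by 2-fold, at 1.97, 1.66 and 1.88 CPM (72, 82 and 157 UMIs), and made up 58.4% (52.2 to 64.3) of the class II UMIs of podocyte-like cells in IRI24h-TD. Ciita had 8, 1 and 0 UMIs in podocyte-like cells, and 0 UMIs in 8757 cells allow a level of up to 0.036 CPM at 3 counts.

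Cluster 7 and the PEC-like clusters lay above podocyte-like cells in every library. In cluster 7 the class II sums of the 3 libraries were 1535 CPM (1499 to 1572), 435 (407 to 465) and 424 (397 to 452). In PEC-like cells they were 379 CPM (358 to 402), 55.7 (40.8 to 74.3) and 39.2 (29.1 to 51.7). Cluster 16 stood at 247, 43.4 and 39.4 CPM and cluster 19 at 482, 65.5 and 38.9. Cluster 7 made up 52.8%, 59.6% and 53.2% of the cells in these 3 clusters and 85.7%, 95.03% and 94.9% of their class II UMIs.

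All 6 class II members were at least 2-fold higher in cluster 7 than in podocyte-like cells of Sham, against 26.4% of genes, from H2-Aa (log2 3.45) to Ciita (5.66). In IRI24h-TDN and IRI24h-TD 5 of them were, against 28.6% and 28.5%, and H2-Ab1 had ratios of 5.57 and 8.98. In PEC-like cells 5 members were higher in Sham, against 23.6% of genes, and H2-Ab1 led them at 3.16. In IRI24h-TDN 2 members were higher, H2-Ab1 (3.60) and H2-Aa (1.56, from 9 UMIs in 4 PEC-like cells), against 27.8% of genes. In IRI24h-TD H2-Ab1 (6.67), H2-Eb1 (3.03) and Cd74 were higher, against 27.1%. There H2-Eb1 rested on 6 UMIs and Cd74 on 1 UMI of PEC-like cells. Apart from H2-Ab1, these members reached 20 UMIs only together with the podocyte-like cells.

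Genes shared by leukocytes had few UMIs in these cells of Sham and IRI24h-TD, where Csf1r, a macrophage marker, had more. The leukocyte list held 47, 189 and 2 UMIs in cluster 7 and 64, 16 and 0 in PEC-like cells of the 3 libraries. Cluster 7 had 144, 4.66 and 462 class II UMIs per leukocyte UMI. PEC-like cells had 17.7 and 2.88, and in IRI24h-TD no leukocyte UMI beside 50 class II UMIs. In IRI24h-TDN 94.7% of the 189 leukocyte UMIs of cluster 7 lay in 10 cells, and 1 cell held 101. Cells without any leukocyte UMI had 1510, 414 and 431 class II CPM in cluster 7 and 278, 60.5 and 39.2 in PEC-like cells. The macrophage list (C1qa, C1qb, C1qc, Adgre1, Csf1r, Cd68, Mrc1, Ms4a7, Cx3cr1 and Aif1) held more, with 1113, 265 and 133 UMIs in cluster 7 and 491, 80 and 94 in PEC-like cells. Much of it was Csf1r, the CSF1 receptor, at 236, 38.0 and 50.5 CPM in cluster 7 beside 4.91, 2.86 and 1.84 CPM in podocyte-like and 1010 and 1515 CPM in macrophage-like cells, the last from Sham and IRI24h-TDN. Cd68, a lysosomal protein, stood at 7.69, 18.3 and 10.6 CPM in cluster 7, beside 15.99, 12.7 and 10.97 in podocyte-like cells. The other 8 genes of the list, a grouping made after these values were seen, held 38, 151 and 0 UMIs in cluster 7 and 48, 20 and 2 in PEC-like cells. For the 3 clusters combined, class II UMIs per UMI of the whole macrophage list were 4.93, 2.68 and 4.29, beside 5.005, 0.582 and 0.430 in macrophage-like and 2.62, 0.510 and 0.228 in podocyte-like cells. The part of macrophage RNA in the class II values was not tested.

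**Figure D3:**
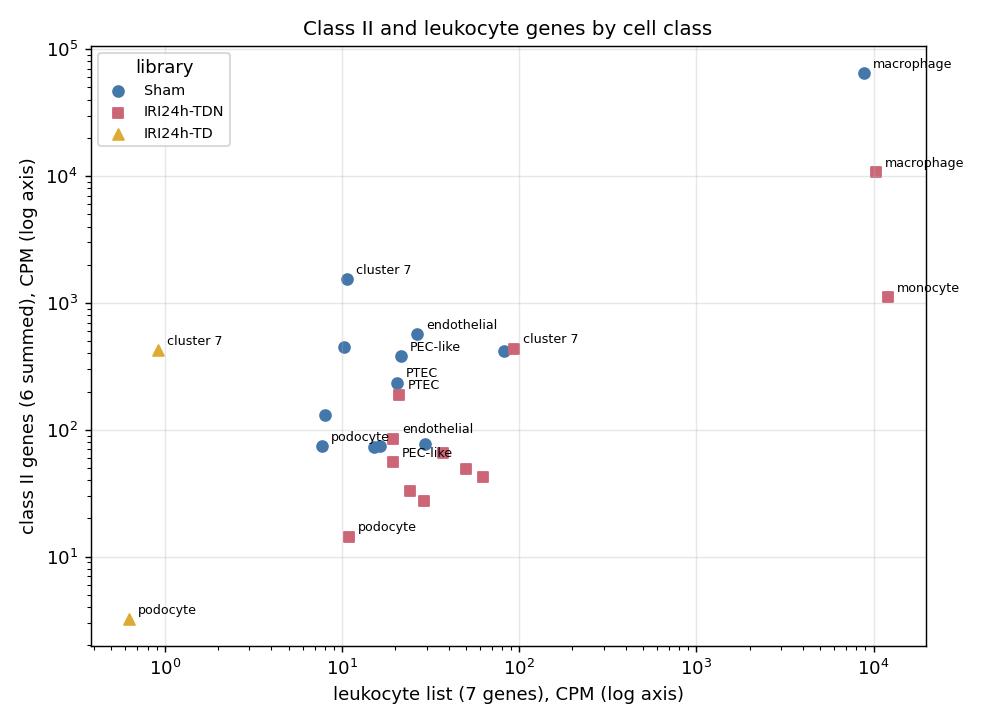
Summed class II CPM against the summed CPM of 7 leukocyte genes (both log axes), for classes with at least 50 cells and at least 1 UMI of each sum, by library. Cluster 7 lies at 1535 class II CPM with 10.6 leukocyte CPM in Sham and at 424 with 0.918 in IRI24h-TD, while podocyte-like cells of the same libraries lie at 74.2 with 7.71 and 3.23 with 0.624.

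The class II UMIs of cluster 7 were spread over many cells in Sham and were more concentrated after injury, when 10 cells held 48.1% and 40.3% of them (19.8% in Sham). Without the 10 cells the sums of cluster 7 were 1299.8, 248.6 and 275 CPM. H2-Ab1 was found in 62.4%, 46.6% and 48.8% of its cells and in 40.5%, 19.2% and 18.9% of PEC-like cells, beside 11.7%, 2.62% and 0.274% of podocyte-like cells. Median depths were 9087, 12825 and 12872 UMIs in cluster 7, 6577, 7896 and 7256 in PEC-like cells and 8234, 9326 and 9543 in podocyte-like cells. After each cell was thinned to 2400 UMIs, which left out 52, 6 and 13 shallower cells of cluster 7, 22, 1 and 6 PEC-like and 102, 3 and 591 podocyte-like cells, the shares of cluster 7 were 48.3%, 21.4% and 22.6%, those of PEC-like cells 24.0%, 8.16% and 6.34%, and those of podocyte-like cells 3.62%, 0.775% and 0.0857%. Sham also had the highest share in each group before thinning. Cluster 7 had 152, 26 and 27 cells with at least 10 class II UMIs, and the highest cells held 233, 54 and 84. In PEC-like cells 10 cells held 44.4%, 67.4% and 52.0% of the class II UMIs, 1 cell of Sham held 311, and without the 10 richest cells of each library the sums were 221, 20.5 and 20.3 CPM.

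Most cells of cluster 7 with H2-Ab1 also held Cd74. Of the cells of cluster 7 with H2-Ab1, 83.4%, 63.2% and 72.0% also had Cd74, against 44.4%, 19.2% and 19.8% of its cells without H2-Ab1. In PEC-like cells 37.7% (29.99 to 45.8) of the H2-Ab1 cells of Sham had Cd74, but 1 of 19 in IRI24h-TDN and 0 of 28 in IRI24h-TD, where the upper Clopper-Pearson bound is 12.3%. Their Cd74 level went from 80.2 CPM (239 UMIs) to 2.42 (2 UMIs) and 0.784 (1 UMI), while that of H2-Ab1 went from 150 CPM to 36.3 and 30.6. H2-Ab1 made up 39.4% (36.6 to 42.4) of the class II UMIs of PEC-like cells in Sham, then 65.2% (49.8 to 78.6) and 78.0% (64.0 to 88.5) in the injured libraries. In Sham 1 PEC-like cell held 311 of the 1131 class II UMIs. The highest counts in any PEC-like cell of Sham were 103 for H2-Aa, 81 for H2-Eb1, 87 for Cd74 and 39 for H2-Ab1. The shares and levels of single members in Sham were not computed without the cell of 311 UMIs. The shares of H2-Ab1 in cluster 7 were 29.2%, 32.8% and 35.8%. A like pattern was seen in endothelial-like cells, where H2-Ab1 had 33 of the 44 class II UMIs of IRI24h-TDN and Cd74 none.

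**Figure D4:**
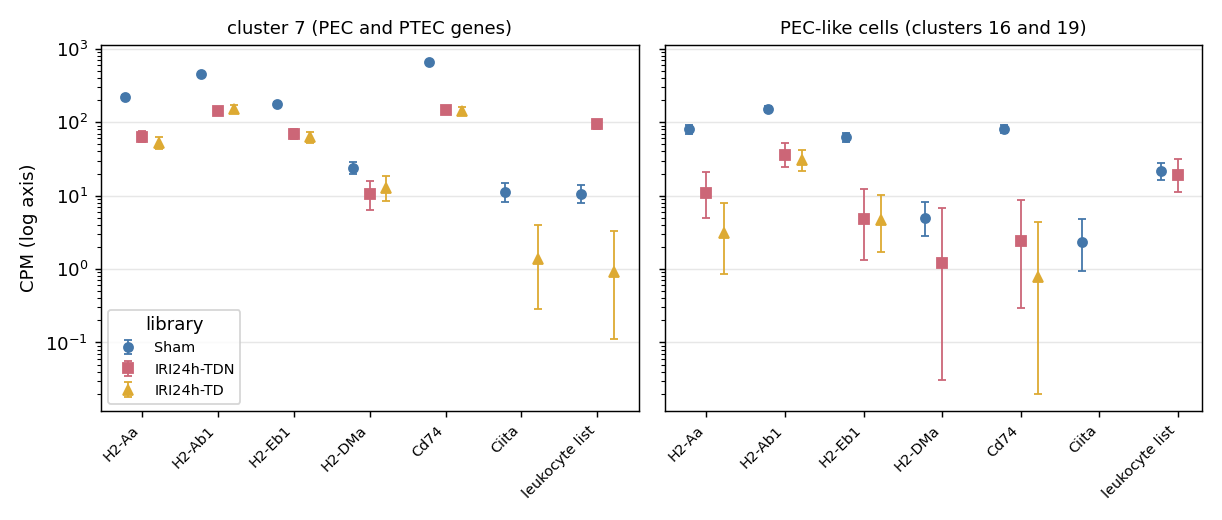
CPM (log axis) of the 6 class II genes and of the summed leukocyte list in cluster 7 and in PEC-like cells, by library, with exact Poisson 95% intervals, where values with no UMI are left out. In PEC-like cells Cd74 is at 80.2 CPM in Sham and 2.42 in IRI24h-TDN, and H2-Ab1 at 150 and 36.3.

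Both groups had less class II RNA after injury. In cluster 7 all 6 class II members were at least 2-fold lower in IRI24h-TDN than in Sham, against 10.9% of genes. The log2 ratios were -1.80 for H2-Aa, -1.65 for H2-Ab1, -1.37 for H2-Eb1, -1.20 for H2-DMa and -2.13 for Cd74. Ciita had 49 UMIs in Sham and none in IRI24h-TDN, at least 7.48-fold lower when 3 counts are taken as the floor of the library. In PEC-like cells 4 members were lower, against 8.83% of genes, H2-Aa (-2.87), H2-Ab1 (-2.04), H2-Eb1 (-3.69) and Cd74 (-5.05, -8.10 to -3.18). Class I did not pass 2-fold in either group, with sums of 4810, 3585 and 3939 CPM in cluster 7 and 5343, 4117 and 4100 in PEC-like cells.

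Between the 2 injured libraries the class II level of cluster 7 did not differ beyond counting error (log2 of IRI24h-TD over IRI24h-TDN -0.04, -0.17 to 0.10). None of the 5 class II members with at least 20 UMIs there was 2-fold lower, against 2.92% of genes. In PEC-like cells the ratio was -0.51 (-1.11 to 0.10). Only H2-Ab1 had at least 20 UMIs there, and it was not 2-fold lower, against 2.03% of genes. The other class II members had too few UMIs in PEC-like cells to be counted either way. Podocyte-like cells of the same libraries differed by -2.15 (-2.36 to -1.95). For the 3 clusters combined the ratio was -0.20, but it was -0.71 with at most 20% mitochondrial UMIs, -0.99 at a clustering resolution of 2 and -1.24 without correction between libraries. Their level in Sham, 1069 CPM, depended on the clustering as well. At a clustering resolution of 2, 373 of its 739 cells, and without correction between libraries 503, fell into clusters with both PEC and PTEC genes, and the remaining PEC-named cells stood at 487 and 336 CPM.

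PTEC-like cells had a low class II level, with a class II UMI in 583 of 1089, 88 of 178 and 30 of 112 cells. Their sum was 235, 189 and 120 CPM, and 10 cells held 40.9%, 61.6% and 74.1% of the UMIs. Without those 10 cells the sums were 140, 78.5 and 39.4 CPM. There were 181, 62 and 0 leukocyte UMIs in PTEC-like cells, and cells without any stood at 157, 143 and 120 CPM. In IRI24h-TDN 1 of the 6 class II members was at least 2-fold above Sham, near the 16.6% of all genes. This was H2-DMa, at 2.83 and 9.44 CPM (25 and 28 UMIs, log2 1.74). No member was 2-fold lower, against 15% of genes. H2-Ab1 stood at 62.0 and 71.8 CPM in Sham and IRI24h-TDN and Cd74 at 77.5 and 44.8. In IRI24h-TD 3 class II members were 2-fold below Sham, H2-Aa (log2 -1.11), Cd74 (-1.22) and H2-Eb1 (-1.50), against 12.8% of genes. H2-DMa was again the 1 class II member of 6 that was higher (1.60, from 8 UMIs), near the 19.8% of all genes.

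Endothelial-like and mesangial or mural-like cells had lower class II levels as well. In endothelial-like cells the sum was 567 CPM in Sham and 85.1 (61.9 to 114) in IRI24h-TDN, and 4 members were at least 2-fold lower, against 9.76% of genes. Cd74 had 142 UMIs in Sham and none after injury, at least 34.3-fold lower with the same floor of 3 counts. The leukocyte list held 19 and 10 UMIs in these cells. In mesangial or mural-like cells the sum was 420 and 65.1 CPM with 4 members lower, against 5.95% of genes, but 10 cells held 76.1% of the UMIs of Sham, and the sum without them was 108 CPM. The leukocyte list held 142 and 100 UMIs there, and cells without any had 154 and 20.6 class II CPM. Cluster 7 and the PEC-like clusters aside, 9 named classes had at least 50 cells in both libraries. Over these H2-Aa, H2-Ab1 and H2-Eb1 were at least 2-fold lower in 7 classes each and Cd74 in 6, and 1.43% of the 6522 genes measured in all 9 were lower in 7 or more. Of 41 pairs of a class II member and a class, 28 were at least 2-fold lower, against 9.49% of the pairs of all genes, and 15 remained counted when at least 100 UMIs were asked for. Of 36 pairs of class I members, 1 was lower. The pairs share genes and libraries and are not separate observations, and the part of free RNA in them was not tested.

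Class I had another order of cells. In Sham, among named classes with at least 50 cells, the sum of the 4 genes was highest in endothelial-like (10381 CPM) and macrophage-like cells (9785), then fibroblast-like (5564), PEC-like (5343), cluster 7 (4810) and podocyte-like cells (4647). The unnamed cluster 8 stood at 6538 CPM, between macrophage-like and fibroblast-like cells. Mesangial or mural-like cells stood at 1903 CPM, and the tubule classes from connecting tubule and principal-like cells (1280) to distal convoluted tubule-like cells (817). PTEC-like (961) and intercalated-like cells (895) were between these. The ratio of H2-D1 to H2-K1 UMIs was 2.93, 3.25 and 3.27 in podocyte-like cells of the 3 libraries and 1.89 and 1.72 in macrophage-like cells of Sham and IRI24h-TDN.

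**Figure D5:**
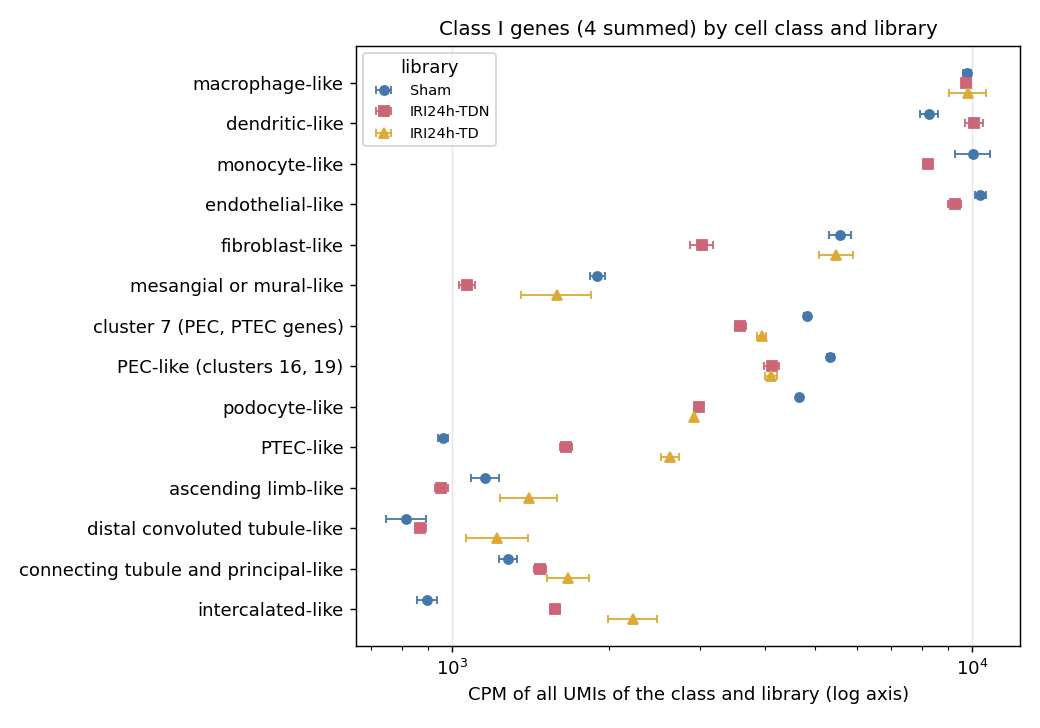
Summed CPM of the 4 class I genes (log axis) for each cell class with at least 10 cells, by library, with exact Poisson 95% intervals. PTEC-like cells are at 961, 1658 and 2629 CPM and podocyte-like cells at 4647, 2983 and 2919 CPM.

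In PTEC-like cells class I was higher after injury. The sums were 961 CPM (941 to 982), 1658 (1612 to 1705) and 2629 (2526 to 2735). From Sham to IRI24h-TDN H2-K1 went from 171 to 299 CPM, H2-D1 from 383 to 608 and B2m from 401 to 744, and none reached 2-fold. In IRI24h-TD all 4 members were at least 2-fold above Sham, H2-K1 (log2 1.54), H2-D1 (1.57), B2m (1.29) and Tap1 (1.29, from 58 and 15 UMIs), against 19.8% of genes. The PTEC-like cells of the libraries came from different clusters, with 509, 86 and 22 cells in cluster 10, 381, 92 and 90 in cluster 12 (led by the injury genes Havcr1 and Krt20) and 199, 0 and 0 in cluster 23. Class I stood at 592, 1400 and 1658 CPM in cluster 10 and at 1793, 1977 and 3529 in cluster 12. The 112 PTEC-like cells of IRI24h-TD were shallow, with a median of 1767 UMIs beside 6940 in Sham. Podocyte-like cells made up 90.4% of IRI24h-TD, at 2919 class I CPM. The part of podocyte RNA in the PTEC-like class I values was not tested. Without the cells of highest doublet scores the log2 ratio of IRI24h-TDN over Sham was 1.43, beside 0.79 with them and 0.63 with TMM factors.

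Intercalated-like cells, which secrete acid or base in the collecting duct, had 895 and 1581 class I CPM in Sham and IRI24h-TDN. H2-K1 was past 2-fold there (188 to 467 CPM, log2 1.31), against 9.34% of genes, while 3 class II members were at least 2-fold lower, against 6.4%. The leukocyte list held 34 and 302 UMIs in these cells, 16.3 and 62.7 CPM, and its part in the class I values was not tested. In both of their clusters the class I ratio was above 0 (0.79 and 0.95). At most 20% mitochondrial UMIs brought the class I ratio from 0.82 to 0.39.

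In podocyte-like cells class I was lower after injury. The sums were 4647 CPM (4625 to 4669), 2983 (2968 to 2999) and 2919 (2907 to 2930). B2m went from 1122 to 607 and 537 CPM, H2-K1 from 890 to 556 and 555, H2-D1 from 2609 to 1806 and 1812, and Tap1 from 25.8 to 14.6 and 14.7. No member was 2-fold lower in IRI24h-TDN, and B2m was in IRI24h-TD (log2 -1.06), beside 4 class II members and against 11.2% of genes. The log2 ratio of IRI24h-TDN over Sham varied among podocyte-like clusters, from -1.08 in cluster 3 to -0.06 in cluster 2. Mesangial or mural-like cells gave -0.83 over all cells, with Tap1 as the 1 class I member at least 2-fold lower (24 and 10 UMIs), and their clusters ranged from -0.11 to -1.16.

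Other genes of both pathways were followed through lists of 17 class II, 22 class I, 8 costimulation and 9 interferon gamma genes, members included. In macrophage-like cells 8 of the 12 class II genes measured were at least 2-fold lower in IRI24h-TDN and 1, Lgmn, a lysosomal protease, higher, against 16.2% of genes higher. Of the 22 class I genes none was higher and 2 were lower, near the 8.11% of all genes, Nlrc5, the class I transactivator, and Psme2, a proteasome activator. The largest changes among non-members with at least 50 CPM were H2-DMb2, a chain of the peptide exchange factor (81.2 to 20.7 CPM), and Nlrc5 (76.5 to 27.0) downward, and Ifngr2, an interferon gamma receptor chain (116 to 267), and Icam1, an adhesion molecule (26.4 to 57.3), upward. H2-DMa, the partner of H2-DMb2 in the complex, had a log2 ratio of -0.87. Of 7 costimulation genes measured 1 was higher, Icam1, and of 8 interferon gamma genes 1 was higher, Ifngr2, and 1 lower, Socs1, a feedback inhibitor of the pathway (31.2 to 8.90 CPM). These counts were near the shares of all genes, 16.2% higher and 8.11% lower. Cd86, a ligand of CD28 on T cells, stood at 332 and 417 CPM.

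In cluster 7, 7 of 13 class II genes were lower, against 10.9% of genes, and 1 higher (Ctss, a protease that trims the invariant chain, with 9, 78 and 0 UMIs), against 7.16%. Of 22 class I genes 1 was lower, Psme2. The largest changes were H2-DMb2 (57.2 to 12.8 CPM) and Psme2 (53.2 to 13.8) downward and Lgmn (173 to 295) and Psmb10 (29.9 to 50.9) upward, the last 2 under 2-fold. In PEC-like cells 4 of 10 class II and 4 of 22 class I genes were lower, against 8.83% of genes, and none was higher, against 4.48%. Psme2 (67.1 to 14.5 CPM) and H2-Q6 (70.5 to 26.6) led downward, and Ifngr2 (51.3 to 82.3) and Lgmn (36.2 to 53.3) were the largest changes upward and under 2-fold. None of the 8 interferon gamma genes measured was past 2-fold in cluster 7 or in PEC-like cells. Of 4 costimulation genes 1 was higher (Cd83) and 1 lower (Icam1) in cluster 7, and all 4 were lower in PEC-like cells, against the same shares of all genes.

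In podocyte-like cells 5 of 12 class II and 5 of 22 class I genes were lower, against 9.37% of genes, and 1 class II gene, Ctss, was higher, against 5.46%. Calr, a chaperone of class I assembly, went from 1700.4 to 607 CPM. Irf1, an interferon response factor, went from 133 to 455 CPM and was at least 2-fold higher. Of 5 costimulation genes 1, Cd80, was lower, which with so few genes cannot be set apart from that background. In PTEC-like cells 4 of 21 class I genes were higher and 2 lower in IRI24h-TDN, beside 16.6% and 15% of all genes, so these counts were near or under the background. In IRI24h-TD 10 of 21 were higher and 1 lower, beside 19.8% and 12.8% of all genes. The largest changes in IRI24h-TDN were H2-Q6 (77.6 to 19.2 CPM) and Calr (1086 to 673.3, under 2-fold) downward and Ifngr2 (13.1 to 101) and Lgmn (218 to 840.4) upward. There 2 of 7 interferon gamma genes (Ifngr2 and Irf1) and 1 of 3 costimulation genes (Icam1) were higher, lists too short to be set against the 16.6%. Over the 9 classes Psme2 was lower in 7 and Nlrc5 in all 3 where it was measured, while Lgmn was higher in 5 and Irf1 in 4, beside 9.49% of all pairs of a gene and a class lower and 9.73% higher.

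Across 30 groups of a class in a library with at least 50 cells, the levels of Cd74 were most like those of Apoe (Pearson r 0.93), Ccl4 (0.91), Ccl3 (0.91), Nfkbid (0.90) and Irf8 (0.89) among non-members, on log2(CPM + 10). H2-K1 was most like H2-T23 (0.91), Tapbp (0.89), Lgals9 (0.88), Tapbpl (0.87) and Psmb9 (0.86). Cd74 and H2-Aa had r 0.98, H2-K1 and H2-D1 0.94, and Cd74 and H2-K1 0.47. These are descriptions over groups that share libraries, depth and free RNA. Class I counts carry one more limit, since reads could be split between related genes. Of the 50-base windows of the H2-K1 transcript 8.79%, and of those of H2-D1 14.3%, also occur in other genes. The 6 class II members and B2m had none. In the last 500 bases of the transcripts the shares were 0.443% for H2-K1 and 9.53% for H2-D1.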

How the data were processed

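Single-cell RNA-seq was made in 3 libraries, 1 per condition. The authors deposited raw UMI counts, with 1 table of genes by barcodes per library. Per the submitters' processing notes the build was mm10 and the tools included CASAVA 1.8, UMI-tools and Seurat. The tables held 9884 to 10062 barcodes, 19242 to 20800 genes and 69980443 to 93470709 UMIs, and every value was a whole number.

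Barcodes with under 200 genes (1547, 444 and 118) or over 50% mt- UMIs (468, 594 and 77) were removed. Counts were scaled to 10000 per cell and log-transformed. From 2000 variable genes (no member, pathway, H2-, mt-, ribosomal or hemoglobin gene) 30 principal components were computed, and the Harmony procedure (theta 2) aligned the libraries. Cells were grouped by Leiden clustering (15 neighbours, resolution 1) into 31 clusters, and leukocytes again into 19 subclusters. A cluster took a name where at least 3 of its markers were found in 25% of its cells. Doublets were kept, and leaving out the top 6% of simulated-doublet scores was an alternative.

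UMIs were summed per class and library. With 1 library per condition there was no test. A gene was called where it had at least 20 UMIs over both groups and differed by at least 2-fold in CPM. Intervals (95%, exact Poisson or Clopper-Pearson) cover counting error only, and a count of 0 was set to a floor of 3 counts for bounds. Shares were also given after thinning to 2400 UMIs per cell. All 10 members are named, and from the pathway lists those at 50 CPM or more with the 2 largest changes in each direction per comparison. One result that this rule names is not reported here. A few others are named with a count, chosen after their values were seen. The members and lists were chosen with earlier results of these data known. Likeness was Pearson's r of log2(CPM + 10).

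Alternatives were the filters, doublet removal, correction, resolution, number of variable genes, cells with leukocyte UMIs, scaling, UMI minimum and thinning. The removal of single clusters or of the 10 cells richest in class II was chosen after seeing the data. Tools were Python 3.11.15, numpy 2.4.6, scipy 1.17.1, pandas 2.3.3, scikit-learn 1.9.0, igraph 0.11.9, leidenalg 0.10.2, R 4.3.3 and edgeR 4.0.16 (TMM factors). The fold and interval steps were also run on simulated Poisson counts with known changes. Those counts had no spread between cells and no free RNA, so they do not bear on these limits. Sequences came from RefSeq and positions from GENCODE.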

Additional observations from a re-analysis of the deposited data

Results flagged for a closer look

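The class I sum had log2 ratios of IRI24h-TDN over Sham of opposite sign in different cell classes. It was lower in podocyte-like (-0.64) and mesangial or mural-like cells (-0.83) and higher in PTEC-like (0.79) and intercalated-like cells (0.82). Each class had 1 library per condition, and the difference between classes was not tested. With TMM factors the podocyte-like and PTEC-like ratios were -0.59 and 0.63.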

How the results depend on the processing

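Each condition was 1 library, so a value was read against its counting interval. The numbers of calls have no such interval and were read against a fixed fold range. Of 106 alternative values of the main results, 59 stayed within these limits and 47 lay outside them. None of the log2 ratios among them changed sign, while levels, shares, counts and UMI ratios cannot be negative. For single members 173 of 180 log2 ratios kept their sign. Of the others, 4 were H2-K1 and H2-D1 in macrophage-like cells under either scaling and 3 were Tap1 in the combined clusters. For each value below that differs from the one reported the cause was not tested. No paired analysis was possible because each condition was 1 library.

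The combined cluster 7 and PEC-like clusters depended most on how cells were drawn. Their class II level in Sham (1069 CPM) was 943 with at most 20% mt- UMIs, 336 without correction, 1244 and 487 at resolutions 0.5 and 2, 932 with 4000 variable genes, 996 without cells with a leukocyte UMI and 886 without the 10 cells richest in class II. Class II UMIs per leukocyte UMI in Sham (71.3) were 111 without top doublet scores, 17.55 without correction, 25.4 at resolution 2 and 97.7 without those 10 cells. The log2 class II ratio of IRI24h-TDN over Sham (-1.72) was -1.94 without correction, -2.0002 at resolution 2, -1.60 with 4000 variable genes, -2.23 without those 10 cells and -1.82 in cluster 7 alone. The ratio of IRI24h-TD over IRI24h-TDN (-0.20) was -0.71 with at most 20% mt- UMIs, -1.24 without correction, -0.99 at resolution 2 and -0.042 without those 10 cells. The share of cells with H2-Ab1 in Sham (52.0%) was 37.2% without correction, 59.6% and 42.15% at resolutions 0.5 and 2, and 30.8% after thinning.

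In macrophage-like cells the class II ratio (-2.60) was -2.54 with at least 500 genes and at resolution 0.5, -2.62 without correction, -2.84 under TMM and median-of-ratios scaling, and -2.45, -2.80, -2.47 and -3.46 in subclusters 0, 1, 2 and 4. Their ratio to podocyte-like cells of Sham (9.77) was 9.70 without top doublet scores or without correction. The class I ratio in podocyte-like cells (-0.64) was -0.59 at resolution 2 and under TMM, -0.58 under median-of-ratios scaling and -0.78 without cluster 2. In PTEC-like cells (0.79) it was 0.66 with at most 20% mt- UMIs, 1.43 without top doublet scores, 1.08 without correction, 0.54 with 4000 variable genes, and 0.63 and 0.65 under TMM and median-of-ratios scaling. In intercalated-like cells (0.82) it was 0.39 with at most 20% mt- UMIs. The 28 class II calls at least 2-fold lower over the 9 classes were 15 at a minimum of 100 UMIs.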

Other observations

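Some leukocyte classes held too few cells for the comparisons. The 33 T or NK-like cells of Sham had 12975 class I CPM (12247 to 13734), with H2-K1 at 2899 CPM and H2-D1 at 4485, and the 6 of IRI24h-TDN had 12173 CPM with no class II UMI. The 20 neutrophil-like cells of Sham had 7 class II UMIs and 7173 class I CPM, and the 12 of IRI24h-TDN had 62 class II UMIs and 8379 class I CPM. In plasma-like cells B2m (3720 CPM in Sham) stood above H2-D1 (984) and H2-K1 (617), and the Cd74 level of the 9 cells of IRI24h-TDN was 1079 CPM.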
